A study of Mus musculus with 12 samples.

Results

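Cyclins are the regulatory partners of the cyclin-dependent kinases (CDKs), and 10 of them are described here in mouse embryonic stem (ES) cells in which a DNA methylation factor or a subunit of the NuRD chromatin complex was knocked down. The set holds Ccno together with Ccna1, Ccna2, Ccnb1, Ccnb2, Ccnd1, Ccnd2, Ccnd3, Ccne1 and Ccne2, among 29816 genes tested. The cyclins were taken by symbol, and Ccno was selected on its measured difference between Mbd3 KD and EGFP KD on these arrays, so the differences between Mbd3 KD and EGFP KD given for these genes are descriptions and carry no test. A total of 14 probes matched the 10 genes, and 9 of the 10 passed the filter on dim probes. Ccne2 did not, since its probe was well above background on 0 of 12 arrays. None of the 168 cyclin spot readings was saturated.

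The arrays asked whether losing these factors alters overlapping sets of mRNAs. All 12 samples were of the E14 line, an established mouse ES cell line, grown without feeder cells on gelatin in medium with serum and leukaemia inhibitory factor (LIF). Every dish, controls included, received endoribonuclease-prepared siRNAs (esiRNAs, pools of short siRNAs cut from a longer RNA) in lipofectamine 2000, and RNA was taken 48 hr later. There were 6 groups of 2 biological replicates each: the control EGFP KD, aimed at a gene that the mouse genome does not hold, and knockdowns of Chd4 and Mbd3 (Chd4 KD and Mbd3 KD), of Mbd2 (Mbd2 KD), of Tet1 (Tet1 KD) and of Dnmt1 (Dnmt1 KD). Dnmt1 is the maintenance DNA methyltransferase, Tet1 oxidises 5-methylcytosine, Mbd2 and Mbd3 are methyl-CpG binding domain proteins of NuRD, and Chd4 is its ATP-dependent remodeller. A knockdown is transient and partial, and each sample is the RNA of a whole dish, so fewer cells making an mRNA and less of it per cell cannot be told apart.

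Cyclin levels rise and fall through the cell cycle, and each type acts in its own window. D cyclins bind Cdk4 and Cdk6 and start the phosphorylation of the retinoblastoma protein, E cyclins bring cells into S phase, A cyclins serve S phase and G2, and B cyclins bind Cdk1 and drive mitosis. ES cells cycle fast, with a short G1, and their E cyclin activity is known to vary little through the cycle. Ccno is an unusual cyclin that is needed for the amplification of centrioles in multiciliated cells such as those of the airway, where it lies downstream of the regulator Mcidas.

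Ccno and Mcidas sit side by side on chromosome 13, in the same orientation. In GRCm38.p6 Ccno spans chr13:112987802-112990778 and Mcidas chr13:112993581-113000394, with 2.8 kb between them. The 250 bases upstream of the transcript start that the RefSeq promoter table lists for each are shown because the factors knocked down write, oxidise or bind CpG methylation, or work with those that do, and because Ccno and its neighbour are alike in CpG content. Capitals mark CpG dinucleotides. The windows are chr13:112987552-112987801 (plus strand) for Ccno and chr13:112993618-112993867 (plus strand) for Mcidas. The start listed for Mcidas lies inside the span given for the gene, so its window overlaps that span.
Ccno: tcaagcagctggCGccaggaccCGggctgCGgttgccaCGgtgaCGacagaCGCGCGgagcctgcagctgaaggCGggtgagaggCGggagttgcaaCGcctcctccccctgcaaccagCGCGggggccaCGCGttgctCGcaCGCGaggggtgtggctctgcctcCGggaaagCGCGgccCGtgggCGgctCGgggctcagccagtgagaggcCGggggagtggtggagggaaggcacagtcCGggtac
Mcidas: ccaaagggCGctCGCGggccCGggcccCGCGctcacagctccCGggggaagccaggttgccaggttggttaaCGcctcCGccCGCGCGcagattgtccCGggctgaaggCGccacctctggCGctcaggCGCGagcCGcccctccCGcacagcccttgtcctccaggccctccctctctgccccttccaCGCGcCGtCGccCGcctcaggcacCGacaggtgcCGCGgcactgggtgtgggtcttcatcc
The Ccno window held 26 CpGs at 72.4% GC, and the Mcidas window 27 CpGs at 73.6% GC, against a median of 6 CpGs over 32851 promoter windows of the same length. As many as 91.4% of all windows held no more CpGs than that of Ccno, and 92.4% no more than that of Mcidas. Among the other cyclins with an entry, the window of Ccne1 held 34 CpGs, that of Ccnb1 28, that of Ccna1 26 and that of Ccnb2 10, and the 2 windows of Ccnd3 held 11 and 19. The CpG count of the Ccno window was therefore also reached by cyclins with smaller differences between groups. CCAAT, the box found upstream of many mitotic genes, was searched on both strands and occurred 3 times in the Ccnb2 window, 2 times in that of Ccnb1, and once in those of Ccna1 and 1 of the 2 Ccnd3 windows, while 33.8% of all windows hold it. TTTGAA, the cell cycle homology region, occurred once in the window of Ccnb2 (16.0% of all windows hold it). Neither these letters nor the E2F motifs TTTCGCG and TTTGGCG (1.9% of all windows) were found in the Ccno window, which says only that they are not in these 250 bases. Ccna2, Ccnd1, Ccnd2 and Ccne2 had no entry.

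Signals are given as the log2 of Agilent's processed spot signal over the 75th percentile of its array, so that 0 is the 75th percentile and 1 unit is a doubling. Signals of different probes are not compared. Arrays correlated at 0.939 to 0.994. The targeted mRNA was low on both arrays of Dnmt1 KD, Mbd3 KD and Chd4 KD (Mbd3, −3.07 and −2.85 against the EGFP KD mean in Mbd3 KD, and Chd4, −1.55 and −1.01 in Chd4 KD). In contrast, on the array labelled Tet1 KD replicate 1 the Tet1 probe read −0.02 and an Mbd2 probe −1.75, while the array with the label Mbd2 KD replicate 1 gave −1.79 for Tet1 and −0.24 for Mbd2. These 2 arrays go against their labels, so both groups are named as labelled, and the values of Ccno, Ccnd1, Ccnd2 and Ccna1 that rest on them are also given without both arrays. A brighter Mbd2 probe read −0.08 and −0.07 on the arrays labelled Mbd2 KD. There were 3 slides. The control arrays were replicate 1 on slide 1, together with replicate 1 of Mbd2 KD, Mbd3 KD and Dnmt1 KD, and replicate 2 on slide 2, beside Chd4 KD replicate 1 and both Tet1 KD arrays. No control lay on slide 3, which carried the second replicates of Chd4 KD, Mbd2 KD, Mbd3 KD and Dnmt1 KD.

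Ccno was measured on all 12 arrays, and its signal was lowest in Mbd3 KD and second lowest in Chd4 KD. It read 0.50 and 0.41 in EGFP KD, −1.99 and −1.49 in Mbd3 KD, and −0.69 and −0.54 in Chd4 KD. It read −0.04 and 0.15 in Dnmt1 KD, 0.32 and 0.03 on the arrays labelled Tet1 KD, and 0.05 and 0.95 on those labelled Mbd2 KD. Both Mbd3 KD arrays lay below both Chd4 KD arrays, and these below every other array, whereas the range of the Mbd2 KD arrays overlapped those of the remaining 3 groups. Both EGFP KD arrays lay above the Dnmt1 KD and Tet1 KD arrays. From the bottom, the group means were −1.74 ± 0.35 (SD, n = 2) in Mbd3 KD, −0.61 ± 0.11 in Chd4 KD, 0.06 ± 0.13 in Dnmt1 KD, 0.18 ± 0.20 in Tet1 KD, 0.45 ± 0.06 in EGFP KD and 0.50 ± 0.64 in Mbd2 KD. The step from Mbd3 KD to Chd4 KD was 1.12, a description, since Ccno was picked for its low signal in Mbd3 KD. That from Chd4 KD to Dnmt1 KD (0.67) was larger than the mean SD within groups (0.25). The steps from Dnmt1 KD to Tet1 KD (0.12) and from EGFP KD to Mbd2 KD (0.05) were smaller than that SD, and that from Tet1 KD to EGFP KD (0.28) was about as large.

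**Figure D1:**
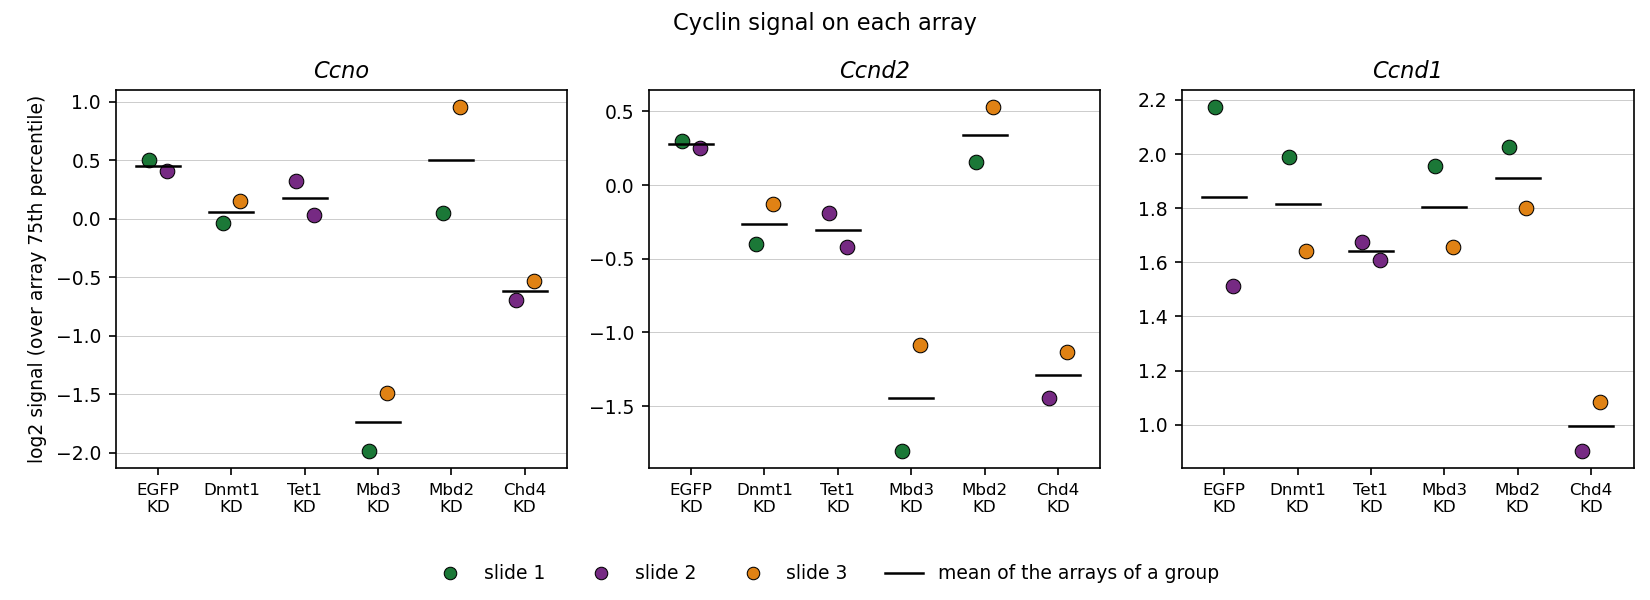
Signal of Ccno, Ccnd2 and Ccnd1 on each of the 12 arrays (y axis, log2 signal over the 75th percentile of the array) by group (x axis), with points coloured by slide and a bar at the mean of the 2 arrays. Ccno and Ccnd2 are low on all 4 Mbd3 KD and Chd4 KD arrays, and Ccnd1 is lowest on the 2 Chd4 KD arrays (0.90 and 1.08).

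In Mbd3 KD the Ccno signal differed from that in EGFP KD by −2.19 on the log2 scale (4.57-fold lower), the difference for which it was picked. The array of slide 1 alone gave −2.48 against the EGFP KD array of the same slide. On slide 3, which has no control, the Mbd3 KD array differed by −2.04 from the mean of the Dnmt1 KD and Mbd2 KD arrays, and the Chd4 KD array gave −1.09 on the same measure.

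Chd4 KD offered a difference in Ccno between arrays that were not used to pick it. Against the mean of the Dnmt1 KD, Tet1 KD and Mbd2 KD arrays it was −0.86 (SE 0.25, 95% interval −1.44 to −0.28, n = 2 against 6) and did not pass the test in limma (adjusted p = 0.121 over all genes). Its SE comes from the fit over all 12 arrays, those of Mbd3 KD and EGFP KD among them. Without the 2 arrays that go against their labels it was −0.96 (limma adjusted p = 0.0788). Against EGFP KD, whose arrays also served to pick Ccno, the difference was −1.07 (SE 0.30, 95% interval −1.78 to −0.36, 2.10-fold, limma adjusted p = 0.145), and −1.105 on slide 2 alone. With the slide as a block the values were −0.95 (limma adjusted p = 0.0428) and −1.30 (limma adjusted p = 0.0487). The slide effects of that fit are estimated on all 12 arrays, so neither value is independent of the arrays that Ccno was picked on. Chd4 KD stood 1.12 above Mbd3 KD, a value given with no test.

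The differences of Ccno in the other groups were smaller. They were −0.40 in Dnmt1 KD (limma adjusted p = 0.938), −0.28 on the arrays labelled Tet1 KD (limma adjusted p = 1) and 0.05 on those labelled Mbd2 KD (limma adjusted p = 1). Without the 2 arrays that go against their labels, the last 2 were −0.42 and 0.50, from 1 array each. Of the Mbd2 KD arrays, the one that goes against its label had the lower Ccno signal.

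Ccnd2, a D cyclin, followed the order of Ccno most closely among the cyclins. Its gene lies at chr6:127125162-127152188. The signal was 0.30 and 0.25 in EGFP KD, −1.80 and −1.09 in Mbd3 KD, and −1.45 and −1.13 in Chd4 KD. It was −0.40 and −0.13 in Dnmt1 KD, −0.19 and −0.42 on the arrays labelled Tet1 KD, and 0.15 and 0.53 on those labelled Mbd2 KD. The Mbd3 KD and Chd4 KD arrays overlapped each other and lay below the remaining 8. Over the 12 arrays the Pearson correlation of Ccnd2 with Ccno was 0.916, rank 16 among 18847 genes, where the points share groups and slides.

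In Chd4 KD Ccnd2 fell by 1.57 on the log2 scale against EGFP KD (SE 0.26, 95% interval −2.18 to −0.96, 2.96-fold, limma adjusted p = 0.0241). It also fell against the mean of the Dnmt1 KD, Tet1 KD and Mbd2 KD arrays (−1.21, SE 0.21, 2.32-fold, limma adjusted p = 0.0221), and the difference was −1.24 without the 2 arrays that go against their labels (limma adjusted p = 0.101). Within slide 2 the difference from the control was −1.70, and within slide 3 it was −1.33 from the mean of Dnmt1 KD and Mbd2 KD. The call against EGFP KD was lost with the 4 arrays of the comparison alone (limma adjusted p = 0.176), when either EGFP KD array was left out (limma adjusted p = 0.139 without replicate 1 and 0.109 without replicate 2), when either Chd4 KD array was left out (0.131 and 0.0898), and without both arrays that go against their labels (0.0869).

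In Mbd3 KD Ccnd2 differed from EGFP KD by −1.72 (3.30-fold lower), with −2.11 on slide 1 and −1.29 on slide 3 against the mean of Dnmt1 KD and Mbd2 KD. Between Chd4 KD and Mbd3 KD the difference was 0.16, with a 95% interval of −0.45 to 0.77 (limma adjusted p = 0.965). Ccnd2 was −0.54 in Dnmt1 KD and −0.58 on the arrays labelled Tet1 KD, where both arrays of each lay below both controls but neither passed the test (limma adjusted p = 0.938 and 1). Without the 2 arrays that go against their labels, Ccnd2 gave −0.70 in Tet1 KD and 0.25 in Mbd2 KD, from 1 array each.

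Ccnd1, the D cyclin induced by many growth signals, had its lowest signal in Chd4 KD. Its gene lies at chr7:144929931-144939831. The signal was 2.17 and 1.51 in EGFP KD, 1.96 and 1.66 in Mbd3 KD, and 0.90 and 1.08 in Chd4 KD. It ran from 1.61 to 2.03 over the other 6 arrays. Both Chd4 KD arrays thus lay below the other 10, and the 2 EGFP KD arrays were the highest and the lowest of those 10.

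The difference of Ccnd1 between Chd4 KD and EGFP KD was −0.85 (SE 0.24, 95% interval −1.41 to −0.29, limma adjusted p = 0.142), which did not pass the test. It was −0.61 against the control of slide 2 and −0.64 against the Dnmt1 KD and Mbd2 KD arrays of slide 3. With the slide as a block it was −0.69 and passed (limma adjusted p = 0.0182), and it was −0.52 without EGFP KD replicate 1 and −1.18 without replicate 2. Against the mean of the Dnmt1 KD, Tet1 KD and Mbd2 KD arrays it was −0.80 (SE 0.19, limma adjusted p = 0.0739, and −0.75 with adjusted p = 0.285 without the 2 arrays that go against their labels), and against Mbd3 KD −0.81 (95% interval −1.37 to −0.25, limma adjusted p = 0.228). The difference from that mean passed with the slide as a block (−0.65, limma adjusted p = 0.00855) and without either EGFP KD array (0.0385). In Mbd3 KD itself Ccnd1 differed from the control by −0.04.

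Ccnd3, the remaining D cyclin (chr17:47505051-47599689), differed little from the controls. Its signal was 4.45 and 4.34 in EGFP KD, 4.00 and 4.64 in Mbd3 KD, and 4.04 and 4.32 in Chd4 KD. The Mbd3 KD arrays lay on either side of the controls, and the difference in Chd4 KD was −0.21 (95% interval −0.76 to 0.33, limma adjusted p = 0.864). Its dimmer probe gave −0.44 in the same comparison.

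Ccne1, an E cyclin (chr7:38097984-38107490), was 5.12 and 5.13 in EGFP KD, 4.90 and 4.76 in Mbd3 KD, and 5.01 and 4.44 in Chd4 KD. On this probe the arrays of Mbd3 KD and Chd4 KD lay below the controls, by −0.29 in Mbd3 KD and −0.40 in Chd4 KD (95% interval −0.99 to 0.19, limma adjusted p = 0.660). Those labelled Mbd2 KD did too (4.97 and 4.84, −0.22), while those of Dnmt1 KD (5.25 and 4.62) and Tet1 KD (5.28 and 5.04) lay on either side. The second Ccne1 probe did not show this for Mbd3 KD or Chd4 KD. It read 1.03 and 0.87 in EGFP KD, 0.95 and 0.95 in Mbd3 KD and 1.00 on Chd4 KD replicate 2. Chd4 KD replicate 1 had no reading. The mean of the probes (0.83 in Chd4 KD) rests on 1 probe on that array and on both elsewhere. Ccne2, the other E cyclin (chr4:11190433-11204779), stood at the floor of the signal scale on all arrays.

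Ccna2, the A cyclin of dividing somatic cells (chr3:36564865-36573038), was 2.40 and 2.06 in EGFP KD, 2.64 and 2.12 in Mbd3 KD, and 2.10 and 2.10 in Chd4 KD. Every group overlapped the controls, and the 5 differences ran from −0.13 to 0.15. Ccna1, the A cyclin known for its role in male meiosis (chr3:55045469-55057634), was dim, with a probe well above background on 10 of 12 arrays. It read −3.88 and −3.26 in EGFP KD, −2.83 and −2.82 on the arrays labelled Tet1 KD, and −2.85 and −2.97 in Chd4 KD. These 4 arrays lay above both controls, by 0.74 (limma adjusted p = 1) and 0.66 (limma adjusted p = 0.411). The probe was well above background on 1 of the 2 controls, and the differences ran from 0.43 to 1.05 in Tet1 KD and from 0.35 to 0.97 in Chd4 KD as either control was left out. Without the 2 arrays that go against their labels Ccna1 gave 0.75 in Tet1 KD.

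The B cyclins did not share the low signal of Ccno and Ccnd2 in Mbd3 KD. On its brightest probe Ccnb1 (chr13:100778739-100786486) varied least of the 9 cyclins, with a range of 0.28 over the 12 arrays. A dimmer Ccnb1 probe varied more, from 0.88 to 1.66. The brightest probe read 3.75 on both EGFP KD arrays, 3.95 and 3.99 in Mbd3 KD, and 3.70 and 3.87 in Chd4 KD. Its difference in Chd4 KD was 0.04 (95% interval −0.18 to 0.25). Ccnb2 (chr9:70407689-70421554) was 3.65 and 3.43 in EGFP KD, 3.94 and 4.22 in Mbd3 KD, and 3.72 and 3.94 in Chd4 KD. The 2 B cyclins lay above both controls on both Mbd3 KD arrays, by 0.22 for the brightest probe of Ccnb1 and 0.54 for Ccnb2. The other Ccnb1 probes gave 0.20 and −0.05 in Mbd3 KD, and on the last the Mbd3 KD arrays (0.94 and 1.52) lay on either side of the controls (1.399 and 1.174). In Chd4 KD Ccnb2 differed by 0.29 (limma adjusted p = 0.660). The Pearson correlation with Ccno over the 12 arrays was −0.711 for the brightest probe of Ccnb1 and −0.580 for Ccnb2.

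**Figure D2:**
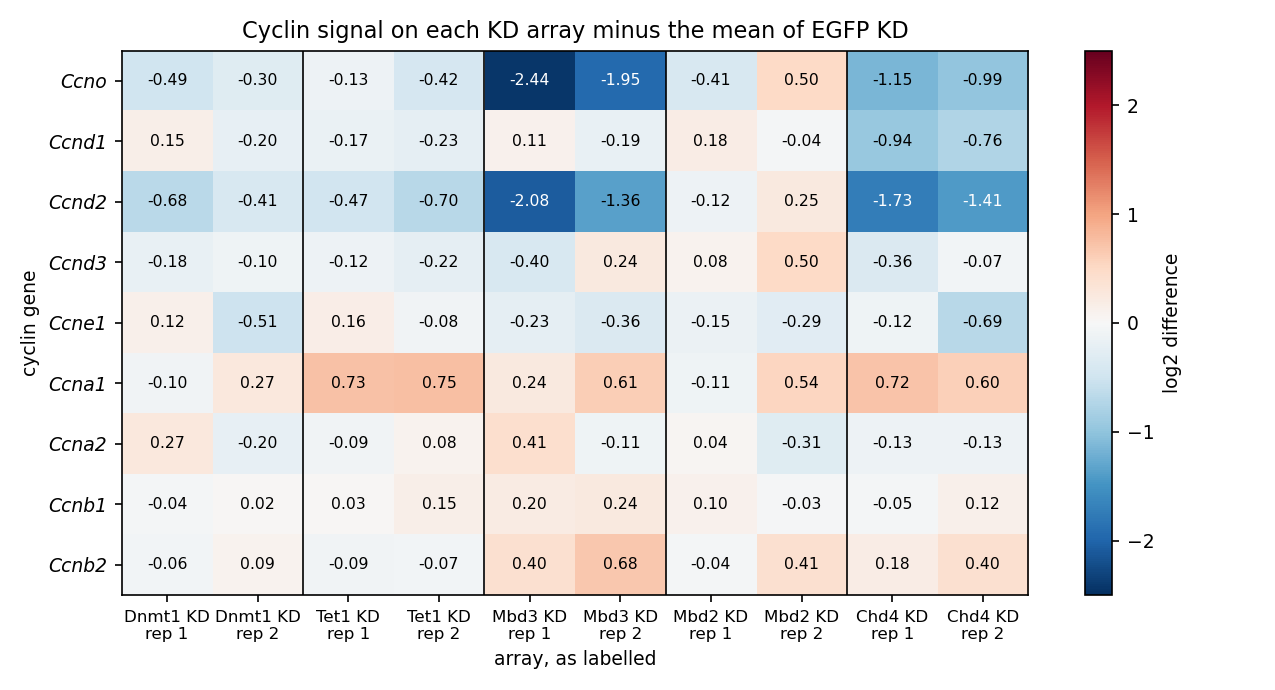
Difference in log2 signal from the EGFP KD mean for the 9 cyclins that passed the filter (rows) on the 10 knockdown arrays (columns), with the value printed in each cell and the colour scale in log2 units. Low values are found for Ccno and Ccnd2 on the Mbd3 KD and Chd4 KD arrays and for Ccnd1 on the Chd4 KD arrays, and Ccnb2 is above the controls on both Mbd3 KD arrays.

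Counted together, 1 of the 9 cyclins, Ccnd2, was called in Chd4 KD at a limma adjusted p under 0.05, where 3.19% of all genes were called, and 3 of 9 had an unadjusted p under 0.05 (12.8% of all genes). Their median difference was −0.21 against 0.00 over all genes. Against the mean of Dnmt1 KD, Tet1 KD and Mbd2 KD the count was again 1 of 9 (background 4.84%), and between Chd4 KD and Mbd3 KD it was 0 of 9 (background 1.45%, with 2 of 9, and 10.1% of all genes, at an unadjusted p under 0.05). In Mbd3 KD, the contrast that Ccno was picked on, 2 of 9 (Ccno and Ccnd2) lay past the same value, beside 0.765% of all genes. This count is a description from which nothing is read. The median of the 9 in Mbd3 KD was −0.04 and that of all genes −0.03. In Dnmt1 KD and on the arrays labelled Tet1 KD and Mbd2 KD, limma called 0 of 9, and 0% of all genes. At an unadjusted p under 0.05 Dnmt1 KD held 0 of the 9 (4.73% of all genes), Tet1 KD 1, Ccna1 (2.84%), and Mbd2 KD 0 (2.08%).

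**Figure D3:**
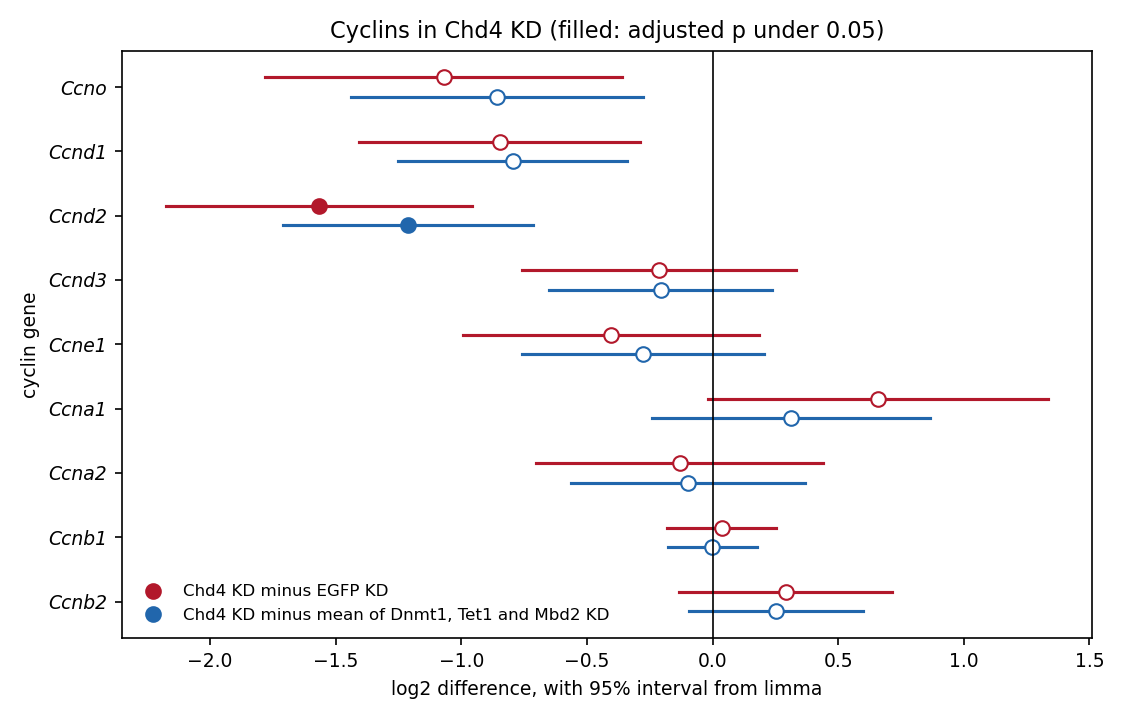
Difference in log2 signal of each of the 9 cyclins between Chd4 KD and EGFP KD and between Chd4 KD and the mean of Dnmt1 KD, Tet1 KD and Mbd2 KD, with 95% intervals (bars) and filled points for a limma adjusted p under 0.05. Ccnd2 is filled in both comparisons, and the intervals of Ccno and Ccnd1 lie below 0 with open points.

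The genes around the cyclins were taken as 8 lists of the cell cycle machinery and of the multiciliated cell program, with 106 of 110 genes tested. These lists were chosen with earlier results of these arrays known. In Chd4 KD 5 of the 106 were called (4.72%, against 3.19% of all genes), 3 higher and 2 lower, with a median difference of −0.13. In Mbd3 KD 2 of 106 were called, both higher (1.89%, against 0.765% of all genes). Limma called 0 of 106, and 0% of all genes, in Dnmt1 KD and on the arrays labelled Tet1 KD and Mbd2 KD. At an unadjusted p under 0.05 these held 4, 4 and 2 genes (4.73%, 2.84% and 2.08% of all genes). The same threshold was passed by 14 of 106 in Mbd3 KD (9.67% of all genes) and 22 of 106 in Chd4 KD (12.8%). Against the mean of Dnmt1 KD, Tet1 KD and Mbd2 KD, Chd4 KD had 9 of 106 called (8.49%, against 4.84% of all genes). These were Foxj1 (3.30), Ccng1, a p53 target (0.92), E2f6 (0.90), Rb1 (0.82) and Ccnjl (0.58) above 0, and Myb (−0.91), Cdkn2a (−0.73), E2f1 (−0.53) and Cdk10 (−0.41) below. Of 23 alternatives, the call was lost in 18 for E2f1, 16 for Cdk10, 14 for Ccnjl, 10 for Ccng1, 4 for Cdkn2a and 1 for E2f6. For Foxj1, Rb1 and Myb it was kept in all 23.

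The called genes were few in each list. Limma called none of the 16 other cyclins tested in Mbd3 KD or Chd4 KD, where their medians were −0.01 and −0.07. At an unadjusted p under 0.05 there were 3 of 16 in Mbd3 KD (9.67% of all genes) and 2 of 16 in Chd4 KD (12.8%). Of the 18 CDKs, Cdk10 was called in Chd4 KD (−0.49, limma adjusted p = 0.0455), but not in 19 of 23 alternatives. Of the 8 CDK inhibitors none was called against EGFP KD (2 in Mbd3 KD and 3 in Chd4 KD at an unadjusted p under 0.05, and a median of −0.26 in Chd4 KD), although Cdkn2a, which encodes p16 and Arf, was lower in Chd4 KD than in Mbd3 KD (−0.90, limma adjusted p = 0.0315). Averaging the probes of Cdkn2a gave −0.49 (limma adjusted p = 0.257), and the call was lost in 18 of 23 alternatives. No gene was called among 17 mitotic regulators, 12 replication licensing factors or 11 genes of the ubiquitin ligases that degrade cyclins. At an unadjusted p under 0.05 these lists held 1, 0 and 2 genes in Mbd3 KD (9.67% of all genes) and 2, 3 and 1 in Chd4 KD (12.8% of all genes). The licensing factors ran from −0.87 to 0.01 in Chd4 KD with a median of −0.21.

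In the Rb and E2F family list, the substrates and effectors of D and E cyclin kinases, Rb1 rose in Mbd3 KD and Chd4 KD. Rb1, which encodes the retinoblastoma protein, read −1.59 and −1.69 in EGFP KD, −0.85 and −0.83 in Mbd3 KD, and −0.87 and −0.75 in Chd4 KD. All 4 Mbd3 KD and Chd4 KD arrays lay above the other 8, which ran from −1.74 (both arrays labelled Mbd2 KD) to −1.49. The difference was 0.80 in Mbd3 KD (SE 0.09, limma adjusted p = 0.0174), and that in Chd4 KD was 0.83 (limma adjusted p = 0.00435). The first was lost in 10 of 23 alternatives, among them without the 2 arrays that go against their labels (limma adjusted p = 0.0809) and when either EGFP KD or either Mbd3 KD array was left out (0.0805 to 0.110). E2f6, a repressive E2F, rose in Chd4 KD by 0.72 (limma adjusted p = 0.0486), but missed the threshold in 16 of 23 alternatives. The median of the 13 genes tested in this list was −0.20 in Chd4 KD. At an unadjusted p under 0.05 the list held 3 of 13 in Mbd3 KD (9.67% of all genes). In Chd4 KD it held 7 of 13 (12.8% of all genes).

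**Figure D4:**
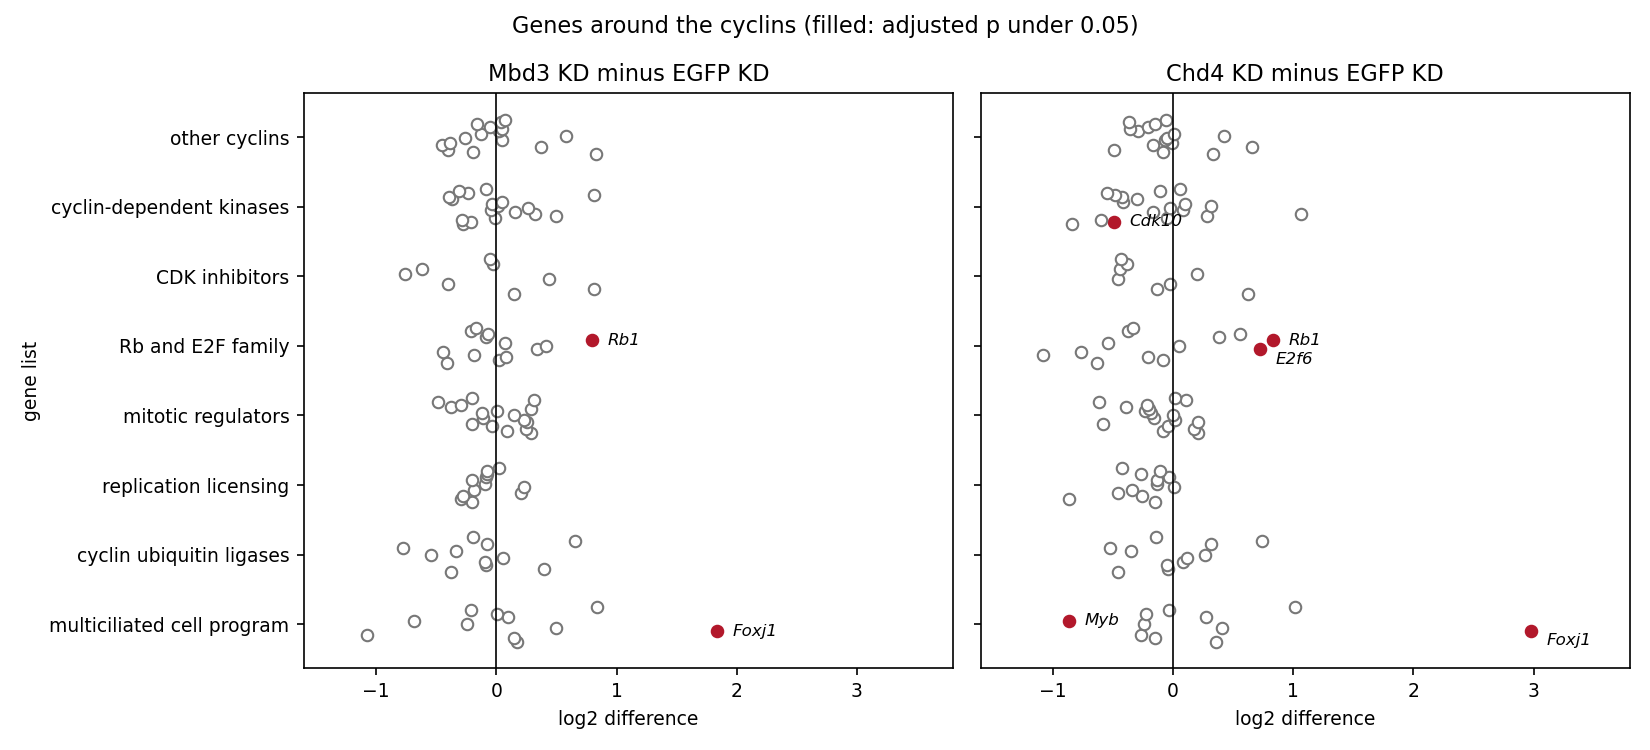
Difference in log2 signal (x axis) of every tested gene of the 8 lists (y axis) in Mbd3 KD and in Chd4 KD against EGFP KD, with filled and named points for a limma adjusted p under 0.05. Most genes lie near 0, and Foxj1 lies farthest out in both panels (1.84 and 2.98).

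In the multiciliated cell list, to which Ccno is joined by function, Foxj1 rose in Mbd3 KD and Chd4 KD while Ccno was low in them. Foxj1, the transcription factor of motile cilia, read −3.92 and −3.70 in EGFP KD, −2.05 and −1.90 in Mbd3 KD, and −0.86 and −0.81 in Chd4 KD. On the other 6 arrays it ran from −4.45 to −3.99, and it was well above background on all 12. It rose by 1.84 in Mbd3 KD (3.57-fold, SE 0.13, limma adjusted p = 0.00551) and by 2.98 in Chd4 KD (7.87-fold, limma adjusted p = 0.00045), and the difference between Chd4 KD and Mbd3 KD, 1.14, also passed the test (limma adjusted p = 0.00989). Without the 2 arrays that go against their labels the call in Mbd3 KD was lost (limma adjusted p = 0.0594), and the call between Chd4 KD and Mbd3 KD was lost without Mbd3 KD replicate 1 (0.0712) or either Chd4 KD array (0.0530 and 0.0778).

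Myb, which acts early in multiciliated cell differentiation and in blood progenitors, fell in Chd4 KD. It read −2.03 and −1.94 in EGFP KD, −2.79 and −2.55 in Mbd3 KD, and −2.91 and −2.79 in Chd4 KD. The 4 Mbd3 KD and Chd4 KD arrays lay below the other 8. The difference was −0.87 in Chd4 KD (limma adjusted p = 0.0125) and −0.68 in Mbd3 KD, where it missed the threshold (limma adjusted p = 0.0721). The call in Chd4 KD was lost when either EGFP KD or either Chd4 KD array was left out (0.0632 to 0.0791). The list as a whole did not move one way: its median was 0.10 in Mbd3 KD and −0.03 in Chd4 KD, over 11 genes.

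Mcidas, the neighbour of Ccno, differed less from the controls in Mbd3 KD and Chd4 KD than Ccno did. Mcidas read 1.55 and 1.31 in EGFP KD, 1.22 and 1.16 in Mbd3 KD, and 1.54 and 0.85 in Chd4 KD. Both of its Mbd3 KD readings lay below both controls. The 4 arrays of slide 3 were its 4 lowest of the 12, in Chd4 KD (0.85), Mbd2 KD (0.91), Mbd3 KD (1.16) and Dnmt1 KD (1.19). The difference was −0.25 in Mbd3 KD (95% interval −1.08 to 0.59, limma adjusted p = 0.894) and −0.24 in Chd4 KD (95% interval −1.07 to 0.59, limma adjusted p = 0.909). The interval in Chd4 KD reaches the difference of Ccno there (−1.07). On the other side of Ccno, Dhx29, an RNA helicase of translation initiation 18.4 kb away, differed by −0.23 in Chd4 KD, and Mtrex, an exosome helicase, by −0.61 (limma adjusted p = 0.560). Cdc20b, Mir449c and the pseudogene Gm8795 had no matched probe.

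**Figure D5:**
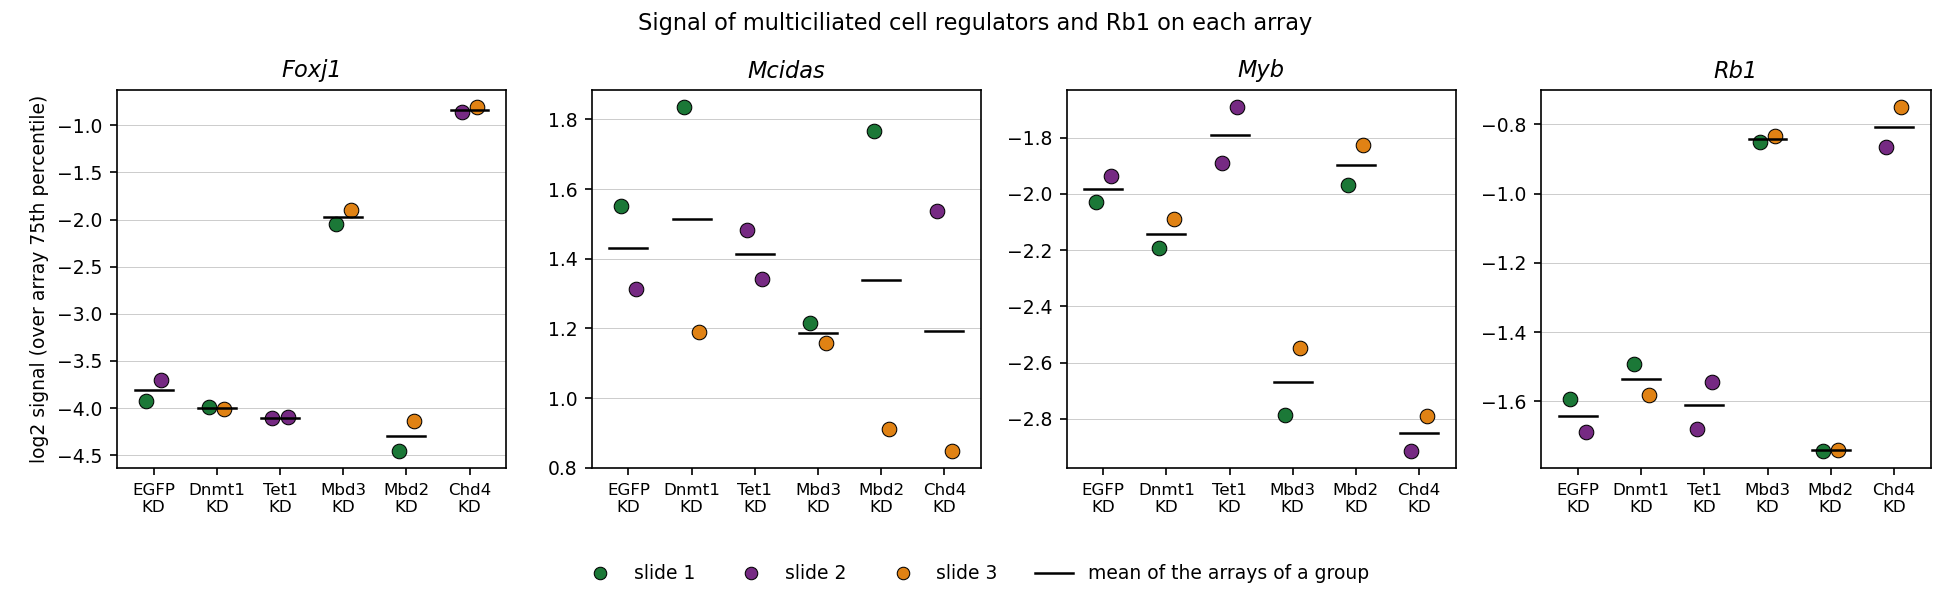
Signal of Foxj1, Mcidas, Myb and Rb1 on each of the 12 arrays (y axis, log2 signal over the 75th percentile of the array) by group (x axis), with points coloured by slide and a bar at the mean of the 2 arrays. Foxj1 and Rb1 are high and Myb is low on the 4 Mbd3 KD and Chd4 KD arrays, and Mcidas is lowest on the 4 arrays of slide 3.

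The genes whose pattern over the 12 arrays was most like that of Ccno were Eef2kmt (Pearson correlation 0.963), Krt10 (0.953), Sp5 (0.950), Abhd14a (0.947) and Gadd45g (0.940), out of 18847 genes with a symbol. Because they were chosen for their likeness to Ccno on these arrays, their low signal in Mbd3 KD and Chd4 KD follows from the choice. Sp5, a target of Wnt signalling, was −1.52 in Mbd3 KD and −0.98 in Chd4 KD, and Gadd45g, a growth arrest and DNA damage gene, was −1.48 and −0.41.

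The labelled cell type was checked against its markers. All 10 ES cell markers had a probe, and limma called 0 of them in Mbd3 KD and in Chd4 KD. At an unadjusted p under 0.05 there were 0 and 1, beside 9.67% and 12.8% of all genes. Their summed scaled signal was 180 to 202 over the EGFP KD arrays, 161 to 210 in Mbd3 KD and 160 to 187 in Chd4 KD. Some markers of other cell types moved in Mbd3 KD and Chd4 KD, and the fibroblast sum was above the controls in the other knockdowns too. The summed signal of 5 fibroblast markers was 3.76 to 4.02 in EGFP KD, 8.41 to 8.86 in Mbd3 KD (Thy1 called, 1.28) and 8.81 to 10.69 in Chd4 KD (Col1a1 called, 2.49, and Thy1, 1.42). That sum was 5.80 to 6.11 in Dnmt1 KD, 4.55 to 4.76 on the arrays labelled Tet1 KD and 4.30 to 4.73 on those labelled Mbd2 KD. The median difference of the 4 tested fibroblast markers was 0.06 in Mbd3 KD, 0.70 in Chd4 KD and 0.42 in Dnmt1 KD (none called there). Col1a2 was at −0.23 in Mbd3 KD and −0.02 in Chd4 KD, and Postn was well above background on 0 arrays. The summed signal of 6 trophectoderm markers was 6.45 to 7.14 in EGFP KD. It was 10.89 to 10.97 in Mbd3 KD (Tfap2c called higher, and Gata3 lower and not well above background there). In Chd4 KD it was 13.7 to 14.4 (Tfap2c and Krt18 called higher). The median difference of the 6 was 0.27 in Mbd3 KD and 0.35 in Chd4 KD, and the lowest was −0.86 and −0.25. Well above background on both arrays of a group were 5 of the 6 in EGFP KD, 3 in Mbd3 KD and 5 in Chd4 KD. Of 6 primitive endoderm markers and 5 mesoderm markers, 0 were called against EGFP KD in either Mbd3 KD or Chd4 KD. At an unadjusted p under 0.05 they held 2 and 1 in Mbd3 KD (9.67% of all genes) and 3 and 0 in Chd4 KD (12.8%). Their sums were 0.670 to 1.102 and 0.274 to 0.314 in EGFP KD. They were 1.03 to 1.09 and 0.206 to 0.242 in Mbd3 KD, and 1.06 to 1.15 and 0.278 to 0.403 in Chd4 KD. The part of these cells in the cyclin values was not tested.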

How the data were processed

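Total RNA of 12 samples (2 biological replicates of each of 6 groups) was labelled with Cy3 and hybridised to 1-colour Agilent mouse arrays. The deposited scanner files hold spot intensity from Feature Extraction 10.7.1.1, and its processed signal is background-corrected. Control spots (1377 per array) and 2053 outlier spots were left out. Each intensity was divided by the 75th percentile of its array (1784 to 2452), floored at 0.0344 and taken to log2. Between 30260 and 37495 probes per array were well above background. Their number and the 2 replicates per group limit precision. A probe was used if at least 1 group had it well above background on both its arrays, and each gene took its brightest such probe (29816 genes, 19367 with a symbol). Accessions were matched to RefSeq (GRCm38.p6) symbols for 71.4% of spots.

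A model of the 6 groups over all 12 arrays was fitted in limma 3.58.1 (R 4.3.3), with Benjamini-Hochberg adjustment over all genes. It was checked on simulated data in which 200 genes were changed in Chd4 KD. Of these, 0% were called against EGFP KD at a change of 1 log2 unit. At 2 units 62% were called, with 7 false calls. The simulated arrays had independent noise without slide effects, and fewer changed genes than the 952 called in Chd4 KD. These shares therefore do not carry over to the real comparison. P-values rest on a spread between replicates that all 6 groups share and that limma moderates across genes. This spread includes slide differences, since only the Tet1 KD replicates lie on the same slide. It also includes the 2 arrays that go against their labels. Figures were drawn with matplotlib 3.10.9 (Python 3.11.15).

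Log2 ratios were also deposited by the authors, in a table, of quantile-normalised log2 signals for 7 of the cyclins, used only as an alternative. The other alternatives were normexp background correction (offset 50), quantile normalisation, a floor at 1/10, other filters, the mean of probes, slide or replicate blocks, the arrays of a comparison alone, and leaving out arrays. The members and lists were chosen with earlier results of these data known. Genes are named by rule: all 10 cyclins, the targeted genes where a result turns on them, up to 4 called genes per list and knockdown, genes within 3 places of Ccno, and the 5 most correlated with it.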

Additional observations from a re-analysis of the deposited data

How the results depend on the processing

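Over 23 alternatives, of which leaving out Tet1 KD replicate 1 and Mbd2 KD replicate 1 together was chosen after seeing the data, 0 of 81 values reversed a call, and 34 uncalled values changed sign. The number of cyclins past the threshold in Mbd3 KD (2), a description since Ccno was picked on this contrast, was 1 under quantile normalisation and with the slide as a block, 0 with 1/10 of the floor, with the arrays of the comparison alone and without both arrays that go against their labels, 0 to 1 with single arrays left out, and 4 of 7 in the authors' table. In Chd4 KD (1) it was 2 under normexp, 3 with the slide as a block, 0 with the 4 arrays alone and without both arrays, 0 to 1 with single arrays left out, and 4 of 7 in the authors' table. Between Chd4 KD and Mbd3 KD (0) it was 1 under normexp and 2 in the authors' table, and in Dnmt1 KD (0) it was 1 in that table. The list genes called in Mbd3 KD (2) numbered 1 under quantile normalisation, 1/10 of the floor, the filter on all 12 arrays and the slide block, 0 with 4 arrays and without both arrays, 1 to 2 with single arrays left out and 22 in the authors' table. In Chd4 KD (5) they numbered 2 with 1/10 of the floor, 3 with the filter on all arrays and without both arrays, 8 with the slide block, 0 with 4 arrays, 2 to 4 with single arrays left out and 28 in the authors' table, which gave 5 in Dnmt1 KD and 1 in Tet1 KD. The difference of Ccno in Chd4 KD against the mean of Dnmt1 KD, Tet1 KD and Mbd2 KD (−0.86) was called at −0.71 under normexp, at −0.95 with the slide block, and at −0.10 in the authors' table, and ran from −1.01 (called, without Mbd2 KD replicate 1) to −0.71 with single arrays left out. The fall of Ccnd2 on the same measure was lost without Tet1 KD replicate 1 (limma adjusted p = 0.0592) and without Chd4 KD replicate 1 (0.171) or 2 (0.102). The cause was not tested. The authors' table compresses differences and tests each knockdown against 0, which leaves out the spread of the controls and leaves fewer genes to adjust over (7425). It calls 56.7% of all its genes in Chd4 KD, 46% in Mbd3 KD, 16.5% between these, 0.754% in Tet1 KD and 14.4% in Dnmt1 KD, beside which its counts stand. In the other alternatives named in this paragraph, 0% (4 arrays) to 4.34% (slide block) of all genes were called in Chd4 KD. In Mbd3 KD the share ran from 0% to 0.634% (normexp).

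With the replicate block, the replicate number as a term in the fit, the cyclins called numbered 2 in Mbd3 KD, 1 in Chd4 KD and 0 in each of the other knockdowns, the list genes 3 in Mbd3 KD and 5 in Chd4 KD, and Ccno in Chd4 KD against the mean of the other knockdowns kept −0.86 (limma adjusted p = 0.0961). The deviations of same-numbered arrays correlated at −0.04 to 0.77, and 10 of 15 pairs of groups were over 0.1. Pairing was taken only if every pair was, so the numbers were not used to pair the samples. The highest values, 0.64 to 0.77, were among Dnmt1 KD, Mbd3 KD and Mbd2 KD, whose arrays of the same number share slides 1 and 3. Single calls were followed for the cyclins and for list genes called without this block, so list genes that gained a call are not named. Those that changed were Ccnd1 against the mean of the other knockdowns (gained, limma adjusted p = 0.0406), Cdk10 in Chd4 KD (lost, 0.0535) and E2f1 against the mean of the other knockdowns (lost, 0.0580).

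With 2 arrays a group, a difference of the size seen for Ccno or Ccnd1 in Chd4 KD passed or missed the threshold with the setting, and a difference that missed it is not shown to be absent. Slide 3 held no control array, so its arrays are compared with EGFP KD across slides. The dim probes of Ccna1 and Ccne2 limit what can be said of these genes.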
